A study of Mus musculus with 8 samples.

Results

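Clones of germinal-centre B cells that held IgM cells and class-switched cells side by side were taken from paired B-cell receptor sequences of mouse spleen, collected on day 10 after immunization. The 8 libraries comprised 4 from Dtx1 knockout mice (labelled Dtx1-/-, here KO) and 4 from wild-type mice (labelled Dtx1+/+, here WT). The product of Dtx1 is Deltex-1, which attaches ubiquitin to proteins and acts in the Notch pathway, and the series concerned its role in germinal-centre B cells. Cells were enriched with beads carrying peanut agglutinin, a lectin that binds germinal-centre B cells, then sorted and loaded for droplet sequencing. The sources used here name no immunogen, no sort gates, no targeting strategy and no number of mice. Loss of Dtx1 cannot be checked in these files, which list receptor transcripts only.

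A cell entered when its barcode had 1 heavy and 1 light contig. Cells of a genotype formed a clone when they had the same V and J genes on either chain and heavy CDR3s of 1 length, and were joined at a heavy CDR3 nucleotide identity of at least 85% (single linkage over the 4 libraries). Clones of at least 3 cells with at least 1 IgM cell (constant gene IGHM) and at least 1 IgG or IgA cell were kept, and are termed mixed clones. They numbered 350 of 2989 clones of that size, and of 17919 clones in all, and held 3704 of 40603 paired cells. In KO there were 167 mixed clones with 1335 of 21896 paired cells, of which 420 were switched and 915 IgM. In WT there were 183 mixed clones with 2369 of 18707 paired cells, of which 487 were switched and 1882 IgM. The clones were thus chosen by constant gene, V and J genes and heavy CDR3 identity, so the share of cells in mixed clones, their switched share and their heavy CDR3 values are given as description, with no test. V mutations, UMIs, the light CDR3 sequence (apart from the light V and J genes) and the subclass among switched cells were not used.

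Activated B cells first make IgM, and can then replace the IgM constant gene by a downstream one while keeping the same V region, which is class switching. The enzyme AID starts class switching at the constant genes and also somatic hypermutation of the V regions, and germinal centres select the mutated cells. Switching deletes the DNA in between, so a switched cell cannot return to IgM, and sister cells of both classes come from an ancestor that had not switched. The constant genes lie on chromosome 12 (GRCm38.p6, the mm10 build) on the reverse strand, and are used in the order IGHM (113418826 to 113422730), IGHD (113407535 to 113416324), IGHG3 (113357442 to 113361232), IGHG1 (113326541 to 113330523), IGHG2B (113304314 to 113307933), IGHG2C (113287389 to 113288932), IGHE (113269263 to 113273248) and IGHA (113256204 to 113260236).

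Heavy CDR3 sequences show what the clone rule joins, from identical to distant. Each line gives a cell with the most copies of its heavy sequence in its class and clone, or the first by sequence order where several tie, 5′ to 3′. The switched cells shown of KO clones 11, 3 and 5 and WT clone 2, and the IgM cells shown of KO clone 11 and WT clone 10, had 1 copy each. In all lines, capitals mark bases that differ between the switched and the IgM cell shown.
KO clone 11, IGHG1: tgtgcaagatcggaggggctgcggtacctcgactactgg
KO clone 11, IGHM: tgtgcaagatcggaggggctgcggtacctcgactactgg
WT clone 10, IGHG3: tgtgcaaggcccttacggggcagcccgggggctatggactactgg
WT clone 10, IGHM: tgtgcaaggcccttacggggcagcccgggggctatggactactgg
KO clone 3, IGHG1: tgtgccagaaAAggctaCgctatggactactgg
KO clone 3, IGHM: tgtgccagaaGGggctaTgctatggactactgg
KO clone 5, IGHG1: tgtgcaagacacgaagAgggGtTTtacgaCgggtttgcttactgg
KO clone 5, IGHM: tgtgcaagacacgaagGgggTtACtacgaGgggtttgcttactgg
WT clone 2, IGHG1: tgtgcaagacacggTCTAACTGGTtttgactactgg
WT clone 2, IGHM: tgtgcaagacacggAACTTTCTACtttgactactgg
KO clone 11 (IGHV1-52 with IGKV14-111) and WT clone 10 (IGHV5-17 with IGKV10-96) had the same heavy CDR3 in both classes. In KO clone 3 (IGHV2-2 with IGKV6-23) the cells shown differed at 3 bases, although another pair of cells in that clone had the same CDR3. The nearest switched and IgM cells of KO clone 5 (IGHV1-71 with IGKV2-137) differed at 5 bases. In WT clone 2 (IGHV1-62-2 with IGKV2-137) the cells shown differed at 10 bases and were linked through other members, since that clone held 23 distinct heavy CDR3 sequences and its nearest switched and IgM cells differed at 1 base.

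The stretch from CDR1 to CDR2 of 2 of these clones shows the V mutations. Capitals mark bases that differ from the germline, which is the most common sequence of that V gene over all clones. Positions count from 1 at the first base of framework 1, and the stretch spans bases 76 to 171.
IGHV1-52 germline: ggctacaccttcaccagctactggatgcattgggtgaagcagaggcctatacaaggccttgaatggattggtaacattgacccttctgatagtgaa
KO clone 11, IGHG1: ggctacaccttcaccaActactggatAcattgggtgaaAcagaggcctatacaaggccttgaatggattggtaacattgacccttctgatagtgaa
KO clone 11, IGHM: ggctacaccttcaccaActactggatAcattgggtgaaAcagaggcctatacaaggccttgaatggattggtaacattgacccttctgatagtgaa
IGHV1-62-2 germline: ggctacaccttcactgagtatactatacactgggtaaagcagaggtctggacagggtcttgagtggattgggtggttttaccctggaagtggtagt
WT clone 2, IGHG1: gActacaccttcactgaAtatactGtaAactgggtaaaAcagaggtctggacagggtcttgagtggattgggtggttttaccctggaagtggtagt
WT clone 2, IGHM: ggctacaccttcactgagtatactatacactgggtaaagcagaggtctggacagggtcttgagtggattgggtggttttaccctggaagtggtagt
In KO clone 11 the changes G102A and G114A of this stretch, and A56G, G189A and A281T outside it, were in all 2 switched and all 3 IgM cells, and G92A was in 1 switched and 2 IgM cells. IGHV1-52 lies on chromosome 12 from 115145487 to 115145780. In WT clone 2 the IgM cell shown had the germline bases over this stretch. Of its 5 IgG1 cells 1 had no heavy V mutation, against 86 of its 103 IgM cells. IGHV1-62-2 lies on chromosome 12 from 115446417 to 115446710.

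Mixed clones spread over the libraries of their genotype. Of the KO clones 52 had cells in all 4 libraries and 2 in 1 library, and of the WT clones 85 and 3. The libraries of a genotype therefore held cells of the same clones, and are treated as 4 loadings of 1 pool of cells, as the labels name no separate animals. SDs and p-values here reflect how loadings vary and set 1 pool against another, not animals. Libraries held 4585 to 5712 paired cells and 754954 to 1155339 unique molecular identifiers (UMIs, counts of original RNA molecules), with 298 to 371 mixed-clone cells in a KO library and 587 to 604 in a WT library. Any 2 libraries shared 28 to 54 barcodes, and 0 of the 978 barcodes found in more than 1 library had the same heavy sequence there. Intervals and limits given for shares cover counting error only.

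By the rule every mixed clone held an IGHM cell, and IGHG1 was the most frequent switched constant gene, with 525 cells beside 2797 IGHM cells of the 3704. Marks of other B-cell types were at or near 0 in mixed clones, and were also rare among all 40603 paired cells. IGHD, the constant gene typical of naive B cells, and IGHE were each in 0 of 3704 cells, which allows a share of up to 0.0810%. Among all paired cells 149 had IGHD and 0 had IGHE. Of the V genes associated with B-1 cells, IGHV11-2, IGHV12-3 and IGHV7-1 were in 0 of 3704 mixed-clone cells. Over all clones, 39 paired cells used IGHV11-2, 363 IGHV12-3 and 38 IGHV7-1. More than 1000 heavy-chain UMIs, a mark of antibody-secreting cells, were found in 3 mixed-clone cells and in 55 of all paired cells. T-cell receptor contigs were 0 of 104649, but primers for B-cell receptors would miss them.

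Most mixed clones were small and had few switched cells. The median size was 5 cells in KO and 6 in WT, and the largest had 88 (KO) and 254 (WT) cells. Exactly 1 switched cell was present in 72 of 167 KO and 68 of 183 WT mixed clones. Switched cells outnumbered IgM cells in 49 KO and 54 WT clones. Of all switched paired cells, 28.8% in KO and 35.1% in WT fell in mixed clones, whereas 55.3% in KO and 50.3% in WT fell in clones of 1 or 2 cells, which the size limit leaves out.

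Large clones were mixed more often in WT, by counts that were not tested. Among clones of 3 to 4 cells, 8.03% were mixed in KO (72 of 897, exact 95% interval 6.33 to 10.0%) and 11.2% in WT (69 of 616, 8.82 to 14.0%). Among clones of 20 or more cells, 10.9% were mixed in KO (10 of 92, 5.34 to 19.1%) and 26.3% in WT (30 of 114, 18.5 to 35.4%). Over all sizes the share was 9.88% in KO (167 of 1690) and 14.1% in WT (183 of 1299). Just inside the size limit lay 46 KO and 36 WT mixed clones of 3 cells, and just outside it 76 KO and 58 WT clones of 1 IgM and 1 switched cell. An identity limit of 0.80 gave 183 KO and 192 WT mixed clones, and one of 0.90 gave 141 and 161.

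Switched cells had the heavy CDR3 of an IgM cell of their clone less often than IgM cells had that of another IgM cell. Of the switched cells, 147 of 420 in KO (35%) and 155 of 487 in WT (31.8%) had the heavy CDR3 of an IgM cell of their clone. By library the share was 34.9% ± 5.65 in KO and 31.8% ± 6.98 in WT (SD, n = 4 each), and the ranges overlapped (29.2 to 41.7% in KO and 25.2 to 40.8% in WT). A further 160 KO and 181 WT switched cells differed from the nearest IgM cell at 1 to 2 bases, and 113 KO and 151 WT cells at 3 or more. In the last set 10.8% (KO) and 10.4% (WT) of CDR3 bases differed on average, while 0.866% (KO) and 1.34% (WT) of V bases differed from the germline. By contrast 70.4% of KO and 78.7% of WT IgM cells in mixed clones with another IgM cell had its CDR3, as had 93.7% and 90.8% of IgM cells in clones with IgM only. Switched cells with another switched cell in the clone lay between, at 56.6% in KO and 43.9% in WT. These shares count cells, so large clones weigh most, and they were not matched for the number of cells to compare with.

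**Figure D1:**
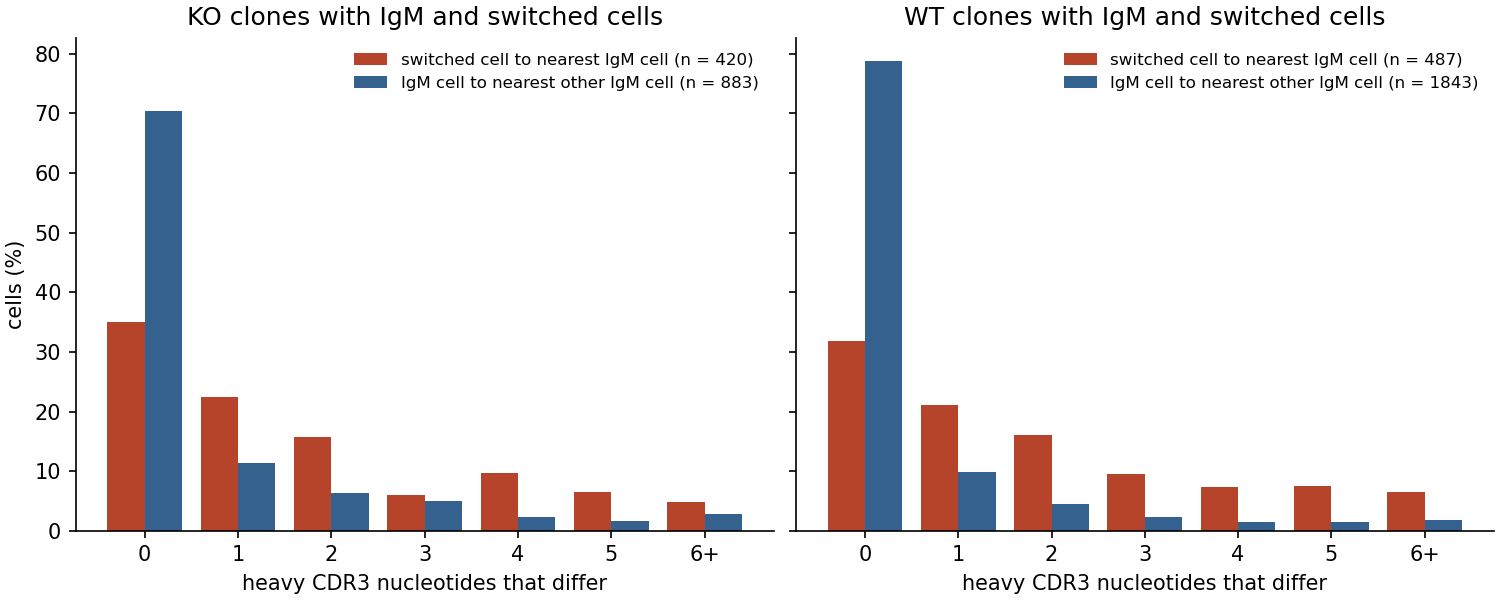
Share of cells (percent, y axis) by the number of heavy CDR3 nucleotides that differ (x axis) between a switched cell and the nearest IgM cell of its clone, or between an IgM cell and the nearest other IgM cell, in KO (left) and WT (right) mixed clones. Identical CDR3s make up 35% (KO) and 31.8% (WT) of the switched cells, against 70.4% and 78.7% of the IgM cells.

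The other genotype gives a measured background for direct matches between a switched and an IgM cell, since KO and WT cells cannot be sisters. These matches leave out the size limit of the clone rule and its joins through other members. The background of the whole rule was therefore not measured. At the 85% identity of the rule, 33.5% of 1458 KO switched paired cells matched an IgM cell of their own pool and 10.9% an IgM cell of the WT pool. Of 1387 WT switched cells, 38.4% matched the own pool and 13.2% the KO pool. At identical heavy CDR3 the KO shares were 11.5% (own) and 0.617% (other), and the WT shares 12.3% (own) and 0.721% (other). The pools held 20342 (KO) and 17147 (WT) IgM cells to match. Because the other-pool share at 85% was above 0, results are also given below for the 158 mixed clones in which a heavy CDR3 occurred in both classes (an alternative chosen after seeing the data), and for clones built on identical heavy CDR3.

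**Figure D2:**
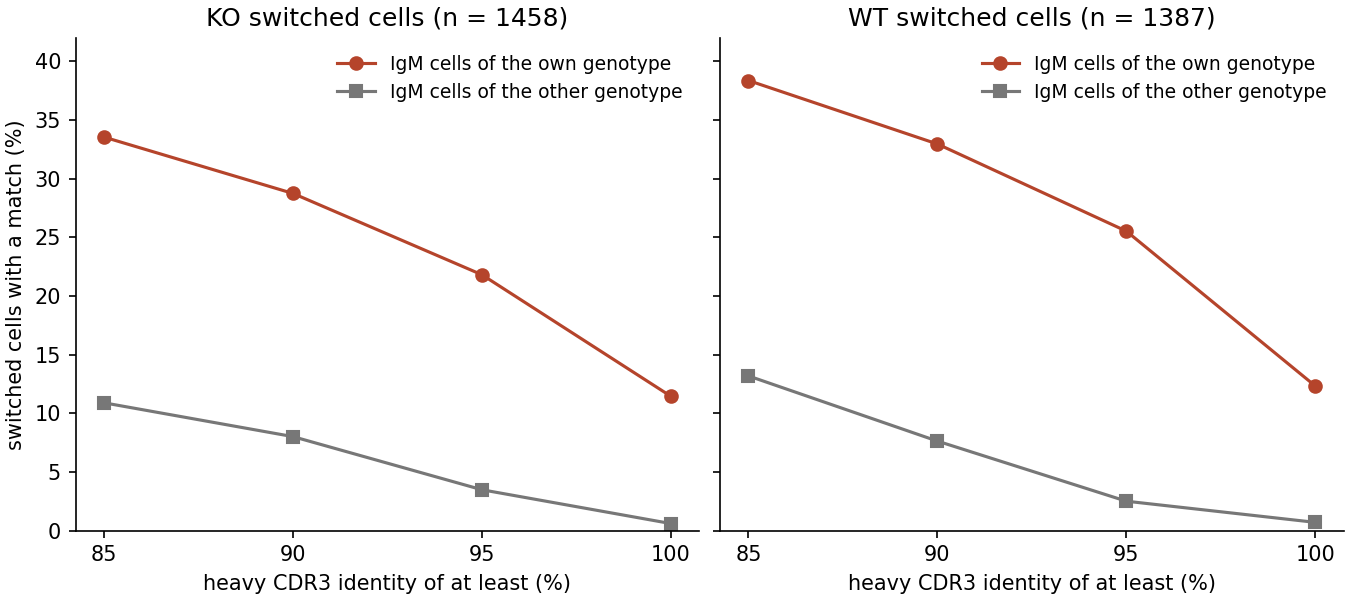
Share of switched paired cells (percent, y axis) that match at least 1 IgM cell with the same V and J genes on either chain and an equally long heavy CDR3, at a rising minimum heavy CDR3 identity (x axis, percent), for KO switched cells (left) and WT switched cells (right). Matches to IgM cells of the own genotype lie above matches to the other genotype at each of the 4 limits, by 33.5% against 10.9% (KO) and 38.4% against 13.2% (WT) at 85%.

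Light CDR3 sequences and V substitutions were compared by heavy CDR3 distance. The rule did not use them directly, but it asked for the same light V and J genes. Equal light CDR3s are therefore not independent of the rule, and no other-genotype background is given for them. The light CDR3 of the switched cell equalled that of the nearest IgM cell in 74.1% (KO) and 65.2% (WT) of cells with an identical heavy CDR3. For cells at 3 or more heavy CDR3 differences the shares were 54.0% (KO) and 60.9% (WT). At least 1 heavy V substitution occurred in both classes in 33 of 70 KO and 47 of 80 WT clones that held an identical CDR3 pair and a mutated switched cell. In clones whose nearest pair differed at 3 or more bases this held for 5 of 35 KO and 11 of 38 WT clones. The latter clones had fewer IgM substitutions to share, 83 (KO) and 257 (WT) against 539 and 1070 with an identical pair. Shared ones made up 9.64% (KO) and 4.67% (WT) of these IgM substitutions, against 10.4% and 10.5% with an identical pair. Of the switched substitutions they made up 4.49% (KO) and 4.24% (WT), against 13.1% and 15.6%. Recurrent changes enter such counts: G92A in CDR1 was found in 29 KO mixed clones over 17 V genes and in 36 WT mixed clones over 16 V genes, and in both classes of 7 KO and 7 WT clones.

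Whole heavy sequences were almost never shared between the classes. Of the switched cells 9 of 420 in KO and 4 of 487 in WT had the same sequence from framework 1 to framework 4 as an IgM cell of their clone. Switched cells shared that sequence with another switched cell in 29 KO and 19 WT cases. IgM cells shared it with another IgM cell of the clone in 460 of 915 KO and 1096 of 1882 WT cells. These counts are of cells, so large clones weigh most, and WT clone 1 alone had 217 IgM cells with the same heavy sequence. They were not matched for the number of cells to compare with. By library the share of switched cells identical to an IgM sister was 2.15% ± 0.45 in KO and 0.839% ± 0.67 in WT (SD, n = 4 each). These shares rest on the 9 KO and 4 WT cells above.

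Switched cells carried more heavy V mutations than the IgM cells of the same clones. The measure is the percent of V bases, framework 1 to framework 3, that differ from the germline, averaged within each clone that had both classes in a library, then over clones. Switched cells had 0.90, 0.869, 0.909 and 0.952% in the KO libraries, against 0.593, 0.472, 0.513 and 0.546% in their IgM sisters. In WT the switched cells had 1.25, 1.15, 1.39 and 1.17%, against 1.02, 0.912, 0.938 and 0.837% in their IgM sisters. The switched value was above the IgM value in 8 of 8 libraries, and within each pool the 2 classes did not overlap. The mean difference was 0.344 percentage points (exact two-sided sign-flip permutation test over 8 libraries, p = 0.0078, the smallest possible; adjusted p = 0.0156), from 33 to 56 clones a library.

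Its size depended on how the clones were built and weighted. In clones with a heavy CDR3 found in both classes the difference was 0.315 points (exact sign-flip p = 0.0078). In clones built on identical heavy CDR3, which leave 126 mixed clones, it was 0.175 points (exact sign-flip p = 0.0547) and was not called. It was 0.611 points when each cell had equal weight, 0.459 in cells with at least 20 heavy-chain UMIs and 0.444 with clones built within each library (exact sign-flip p = 0.0078 each). Per clone over the pool, the switched mean was higher in 93 KO clones, lower in 57 and equal in 14, and higher in 116 WT clones, lower in 53 and equal in 12. The per-clone difference averaged 0.148 (KO) and 0.158 points (WT) where the classes shared a CDR3, and 0.509 (KO) and 0.640 points (WT) where the nearest CDR3s differed at 3 or more bases. With a shared CDR3 the switched mean was higher in 36 KO clones, lower in 30 and equal in 8. The WT counts were 45, 31 and 5. At 3 or more differences they were 28, 6 and 3 in KO, and 32, 5 and 1 in WT.

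Light V segments showed the same direction. Switched cells averaged 0.457% ± 0.043 mutated light V bases in KO and 0.569% ± 0.048 in WT, against 0.203% ± 0.064 and 0.387% ± 0.036 in their IgM sisters (SD, n = 4 each). The difference of 0.218 points was positive in 8 of 8 libraries (exact sign-flip permutation p = 0.0078, adjusted p = 0.0156). It was 0.199 points in clones with a CDR3 found in both classes and 0.133 points in clones built on identical heavy CDR3 (exact sign-flip p = 0.0078 and p = 0.0469), and 0.347 points when each cell had equal weight (exact sign-flip p = 0.0078).

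Cells without any heavy V mutation were mostly IgM. The share of unmutated cells was averaged within each clone that had both classes in a library, then over clones. In KO libraries it was 17.8, 6.55, 13.8 and 13.6% for switched cells, against 47.1, 46.6, 43.4 and 41.9% for their IgM sisters. In WT libraries the shares were 4.46, 7.81, 1.02 and 6.97% for switched cells, against 29.9, 34.5, 30.5 and 30.4% for IgM sisters. Counted per cell over all mixed clones, 16.5% of KO and 5.65% of WT switched cells were unmutated, against 62.2% and 61.9% of IgM cells. The clone-averaged difference was -29.0 points on average and negative in 8 of 8 libraries (exact sign-flip permutation p = 0.0078, adjusted p = 0.0156). In clones with a CDR3 found in both classes it was -18.2 points (exact sign-flip p = 0.0078), and in clones built on identical CDR3 it turned to 4.79 points (exact sign-flip p = 0.453). With equal weight for each cell it was -51.0 points (exact sign-flip p = 0.0078).

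**Figure D3:**
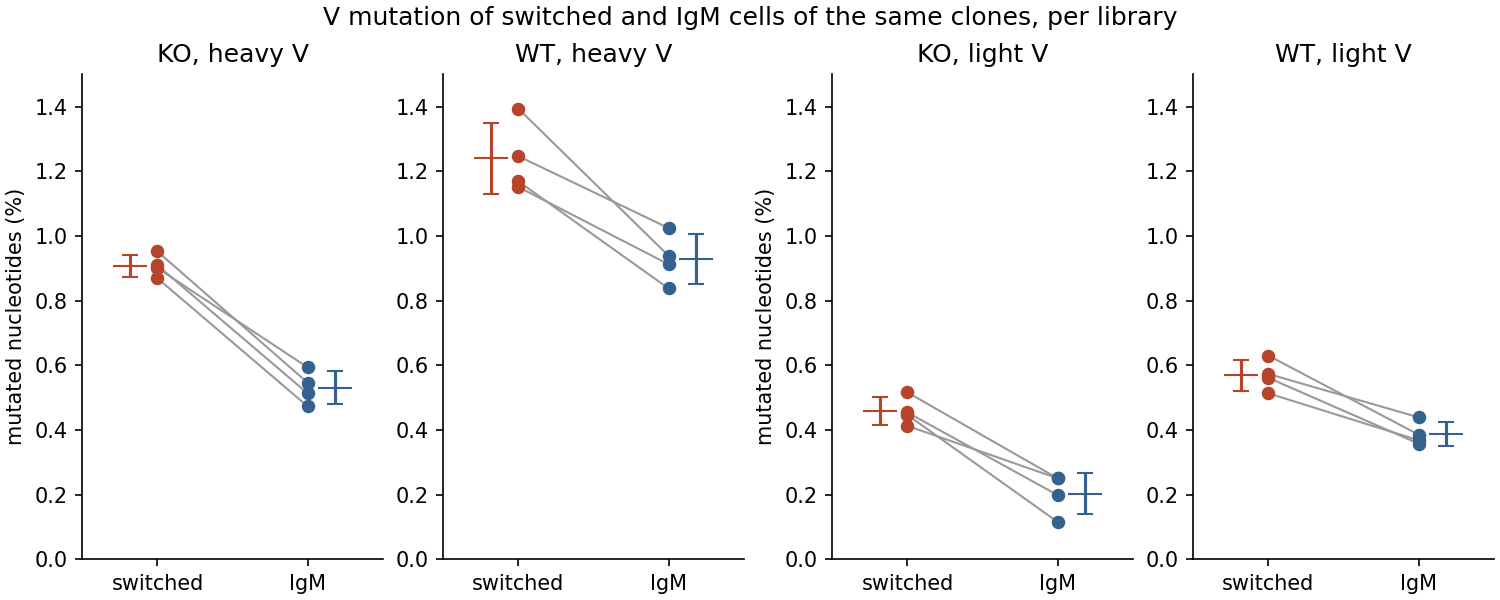
Mutated V bases (percent, y axis) of switched and IgM cells of the same clones, for heavy and light chains in KO and WT. Each point is a library, grey lines join the 2 classes of a library, and bars give the mean and SD of 4 libraries; the switched point lies above the IgM point in all 8 libraries for both chains.

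No difference between the classes passed the test in the kind or place of mutations. Replacement changes made up 76.1% of switched and 76.4% of IgM mutations in KO, and 77.0% and 75.5% in WT (978, 975, 1715 and 2449 mutations). Mutations at C or G in the AID hotspots WRC and GYW (W is A or T, R is A or G, Y is C or T) made up 76.2% of switched and 77.8% of IgM mutations at C or G in KO, and 73.0% and 72.2% in WT. CDR1 and CDR2 held 30.3% of switched and 27.8% of IgM mutations in KO, and 29.8% and 30.8% in WT. None of these 3 shares passed the exact sign-flip permutation test (p = 0.625 for replacement, p = 0.836 for hotspots, p = 0.609 for CDRs; adjusted p = 0.714, 0.836 and 0.714). The CDR share was called in clones with at least 2 cells of each class (2.36 points, exact sign-flip p = 0.0156), and the hotspot share in cells with at least 20 heavy-chain UMIs (5.10 points, exact sign-flip p = 0.0234).

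Distances between cells placed switched sisters apart from IgM cells and from one another. Within a clone and library, a switched and an IgM cell differed at 1.31% ± 0.12 of heavy V bases in KO and 2.03% ± 0.15 in WT (SD, n = 4 each). Switched cells differed from one another at 1.38% ± 0.074 in KO and 2.05% ± 0.17 in WT. IgM cells differed from one another at 0.608% ± 0.10 in KO and 1.09% ± 0.087 in WT, and the IgM range lay below both other ranges in each pool. The kinds of pair were not limited to the same clones. Pairs of switched cells came from 13 to 25 clones a library in KO and 23 to 26 in WT. Switched and IgM pairs came from 33 to 47 and 48 to 56 clones, and IgM pairs from 35 to 56 and 58 to 68.

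Heavy-chain UMIs were lower in switched cells than in their IgM sisters. Geometric means by library were 18.4 to 21.7 UMIs in switched and 41.0 to 48.3 in IgM cells of KO, and 15.7 to 16.9 in switched and 29.4 to 34.6 in IgM cells of WT. The ratio of switched to IgM was 0.438 in KO and 0.522 in WT, a mean log2 difference of -1.07 (8 of 8 libraries lower; exact sign-flip permutation p = 0.0078, adjusted p = 0.0156). Switched cells were lower in 143 of 167 KO and 147 of 183 WT clones. In clones built on identical heavy CDR3 the log2 difference was -1.20 (exact sign-flip p = 0.0078), and in cells with at least 20 heavy-chain UMIs it was -0.51 (exact sign-flip p = 0.0234). The latter cut is made on the measure itself, and library medians of switched cells were 14 to 22 heavy-chain UMIs. The value of -0.51 is therefore no check of the difference.

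Light-chain UMIs of the same cells did not follow. They averaged 79.1 in switched and 79.5 in IgM cells of KO, and 90.9 in switched and 78.1 in IgM cells of WT (geometric means). The log2 difference was 0.11, positive in 7 of 8 libraries, and was not called (exact sign-flip p = 0.164, adjusted p = 0.263), but without KO replicate 1 it was 0.16 (exact sign-flip p = 0.0156).

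**Figure D4:**
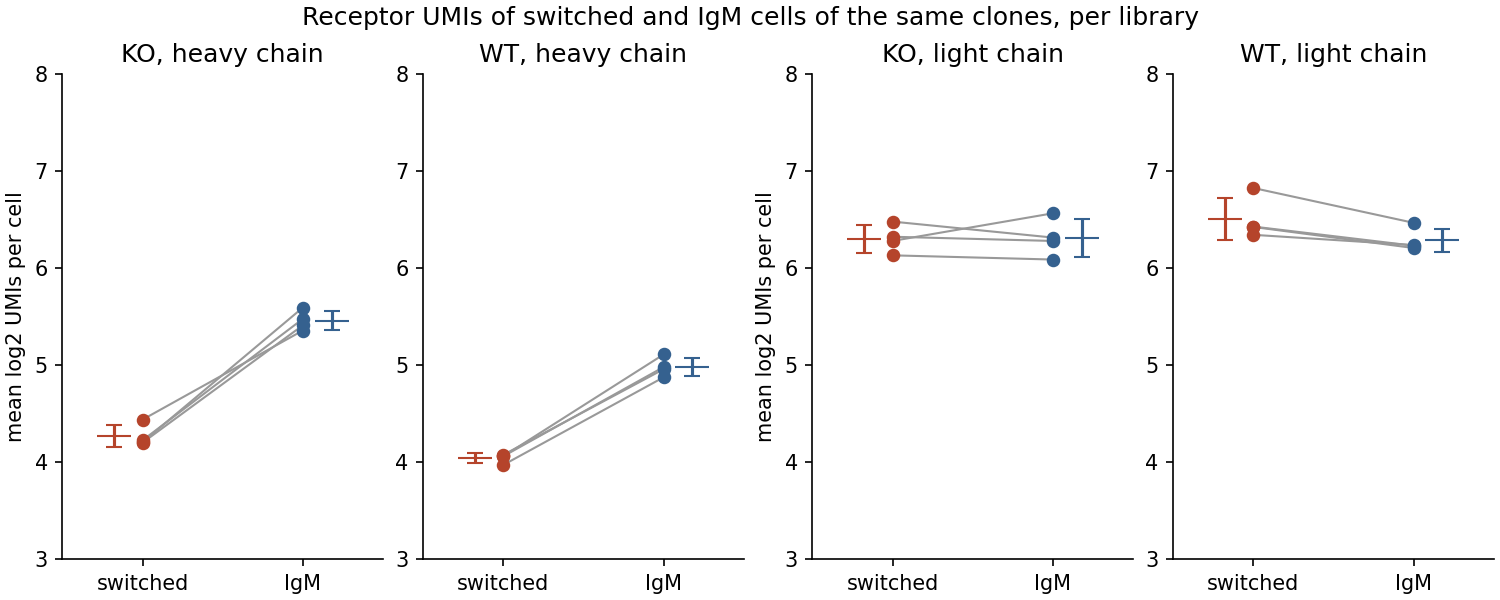
Mean log2 UMIs per cell (y axis, log scale) of switched and IgM cells of the same clones, for heavy and light chains in KO and WT. Each point is a library, grey lines join the 2 classes of a library and bars give the mean and SD of 4 libraries; the heavy-chain point of switched cells lies below that of IgM cells in all 8 libraries.

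Mixed clones were less mutated in KO than in WT, and the order was the same in other clones of at least 3 cells. Counted per cell, IgM cells of IgM-only clones had 0.0823% mutated heavy V bases in KO and 0.212% in WT. Switched cells of switched-only clones had 0.823% and 1.41%. These gaps outside mixed clones were not tested. IgM cells of mixed clones had 0.552% ± 0.030 mutated heavy V bases in KO and 0.820% ± 0.038 in WT, and switched cells 0.859% ± 0.040 and 1.27% ± 0.045 (SD, n = 4 each; all clones of a library, each with equal weight). The libraries of the 2 pools did not overlap in either class (exact two-sided permutation p = 0.0286 each, the smallest that 70 assignments allow; adjusted p = 0.0381). For IgM cells the KO minus WT difference was -0.268 points with equal weight for clones and -0.0799 points with equal weight for cells (exact permutation p = 0.0286 each). For switched cells it was -0.412 points, and -0.273 points in clones with at least 2 cells of each class (exact permutation p = 0.0286 each). The within-clone difference itself was 0.377 points ± 0.046 in KO, against 0.312 ± 0.107 in WT, a gap that missed the threshold (exact permutation p = 0.257, adjusted p = 0.257). For heavy-chain UMIs the log2 difference was -1.19 ± 0.20 in KO and -0.94 ± 0.08 in WT (exact permutation p = 0.0857, adjusted p = 0.0980), but it reached p = 0.0286 without KO replicate 3 (KO minus WT -0.34).

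Mixed clones took up 5.63, 6.50, 6.32 and 5.91% of the paired cells in KO libraries, against 12.5, 12.6, 12.7 and 12.9% in WT libraries. The difference was -6.58 points, but it was -2.09 points in clones with a heavy CDR3 found in both classes, -2.52 points with clones built within each library, -3.49 points with at least 2 cells of each class, and -0.405 points in clones built on identical CDR3. Switched cells made up 36.2, 29.1, 30.2 and 30.9% of mixed-clone cells in KO, against 20.7, 18.6, 20.7 and 22.2% in WT (difference 11.1 points). The rule asks for at least 1 switched cell in each clone, and KO clones were smaller, with a mean of 7.99 cells against 12.9 in WT. The part of clone size in this difference was not tested. Over all paired cells the order was the other way, with 1458 of 21896 cells switched in KO and 1387 of 18707 in WT. In clones with a heavy CDR3 found in both classes the difference was 6.29 points, and in clones built on identical CDR3 3.50 points.

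IgG1 led the switched cells of KO mixed clones, and several IgG subclasses shared those of WT. IGHG1 was 78.8, 81.5, 78.5 and 79.3% of switched mixed-clone cells in KO libraries, against 40.8, 27.5, 44.3 and 42.7% in WT libraries. All KO libraries lay above all WT libraries, and WT replicate 2 was the lowest (difference 40.7 points; exact permutation p = 0.0286, adjusted p = 0.0381). Over the pool, IGHG2B was the class of 59 of 420 KO cells and 148 of 487 WT cells, IGHG3 22 and 137, IGHG2C 5 and 8, and IGHA 0 and 3. KO was also above WT in switched cells outside mixed clones, with IGHG1 at 78.7% ± 0.67 in KO and 48.4% ± 1.87 in WT (SD, n = 4 each, not tested). The IGHG1 share in mixed clones minus that in other switched cells of the same library was 0.827 points ± 1.01 in KO and -9.54 points ± 8.92 in WT (SD, n = 4 each). WT replicate 2 had -22.1 points.

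**Figure D5:**
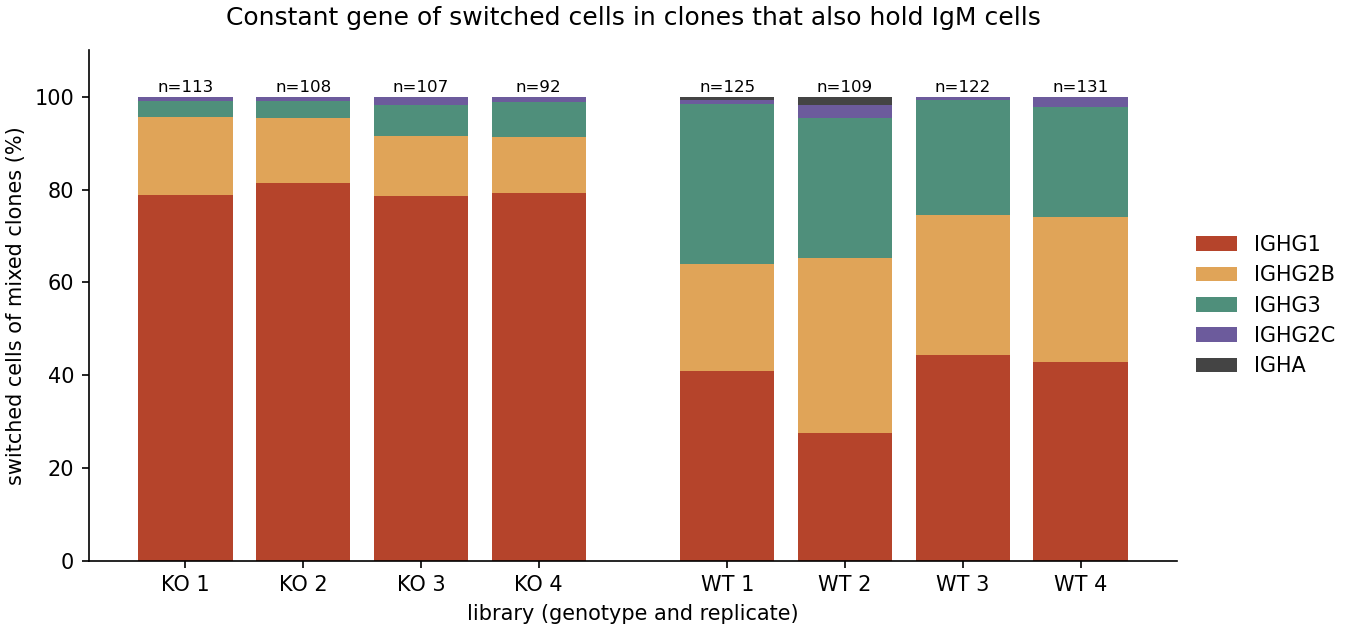
Constant genes of the switched cells in mixed clones (percent, y axis), stacked, for each of the 4 KO and 4 WT libraries (x axis), with the number of cells above each bar. IGHG1 makes up 78.5 to 81.5% in KO libraries and 27.5 to 44.3% in WT libraries.

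Sister cells of a clone could carry different switched classes. Of clones with at least 2 switched cells, 13 of 95 in KO (13.7%) and 45 of 115 in WT (39.1%) held more than 1 switched class, and 2 KO and 7 WT clones held 3 or more. In KO 122 of 167 clones had IGHG1 as the only switched class, and in WT 67 of 183. WT clones with IGHG1 and IGHG2B alone numbered 20, and those with IGHG3 and IGHG1 alone 14. WT clone 3 (IGHV1-81 with IGKV1-135) held 3 IGHG3, 1 IGHG1, 2 IGHG2B and 1 IGHG2C cell beside 95 IgM cells. That clone held 36 distinct heavy CDR3 sequences. Whether the switched classes of a clone came from 1 rearrangement was not tested.

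IGHG1, IGHG2B and WT IGHG3 cells each had more heavy V mutation on average than their IgM sisters. IGHG1 cells exceeded their IgM sisters by 0.325 points ± 0.056 in KO and 0.556 ± 0.15 in WT, in 4 of 4 libraries each (SD, n = 4). IGHG2B cells did so by 0.626 points ± 0.24 in KO, from 4 to 9 clones a library, and by 0.192 ± 0.29 in WT, where 3 of 4 libraries were positive. IGHG3 cells of WT exceeded theirs by 0.184 points ± 0.16, also in 3 of 4 libraries. Differences between subclasses were not tested.

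IgM cells of mixed clones were more mutated than IgM cells of clones with IgM only. Matched on clone size, the mixed clones exceeded the IgM-only clones by 0.514 points, in 8 of 8 libraries (0.552% against 0.0996% in KO and 0.820% against 0.245% in WT; exact sign-flip permutation p = 0.0078, adjusted p = 0.0117). In clones built on identical CDR3 the difference was 0.715 points (exact sign-flip p = 0.0078). With equal weight for each cell it was 0.329 points (exact sign-flip p = 0.0078). Counted per cell, 62.2% of KO and 61.9% of WT IgM cells in mixed clones were unmutated, against 91.9% and 81.6% in IgM-only clones.

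Switched cells of mixed clones and of switched-only clones were not told apart. They differed by -0.0472 points (3 of 8 libraries positive; exact sign-flip p = 0.398, adjusted p = 0.398). Library means were 0.859% ± 0.040 against 0.821% ± 0.054 in KO and 1.27% ± 0.045 against 1.40% ± 0.14 in WT (SD, n = 4 each). Built within each library, the clones gave 0.217 points (exact sign-flip p = 0.0234), and no direction is drawn.

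Mixed clones had shorter heavy CDR3s than IgM-only clones of the same size. The mean length was 41.7 nucleotides in mixed against 43.9 in IgM-only clones of KO, and 42.3 against 43.9 in WT. The difference averaged -1.92 nucleotides, and was -2.80 in clones with a CDR3 found in both classes and -3.40 in clones built on identical CDR3. CDR3 length enters the clone rule, so no test is given.

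The mixed clones used 62 heavy V genes, all of which matched a RefSeq symbol. IGHV1-9 (chromosome 12, 114583569 to 114583862) led with 40 clones, 19 of 96 KO and 21 of 94 WT clones of at least 3 cells that used it. IGHV1-81 (115920279 to 115920572) followed with 26 clones, 6 of 88 in KO and 20 of 100 in WT. IGHV1-26 and IGHV8-8 had 16 mixed clones each, IGHV1-53 15, IGHV1-55 and IGHV1-62-2 14 each and IGHV1-64 13. Among light V genes IGKV1-110 had 39 mixed clones, IGKV1-117 38, IGKV2-137 31, IGKV14-111 29 and IGKV10-96 14. The pairs IGHV1-62-2 with IGKV2-137 and IGHV1-9 with IGKV1-110 led with 13 clones each, 4 in KO and 9 in WT. These counts were not tested.

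Several of the largest clones had few switched members. WT clone 1 (IGHV1-9 with IGKV3-4) had 1 IgG1 and 253 IgM cells, of which 246 IgM cells were unmutated and 217 had the same heavy sequence. Its IgG1 cell carried 3 heavy V mutations and differed at 1 CDR3 base from the nearest IgM cell. KO clone 1 (IGHV1-62-2 with IGKV2-137) had 8 switched and 80 IgM cells, with 3.00 and 0.313 heavy V mutations a cell. Its change C103A was in 6 of 8 switched and 2 of 80 IgM cells. WT clone 4, with the same V pair, had 3 switched and 79 IgM cells, with 5.67 and 0.253 mutations a cell.

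Among clones with many switched cells the contrast between the classes varied. KO clone 3 and KO clone 7 used the same pair, IGHV2-2 with IGKV6-23, and had 15 and 10 switched beside 23 and 9 IgM cells. KO clone 3, the third largest KO clone, had 2.13 heavy V mutations in a switched and 0.348 in an IgM cell on average, and 20 of its 23 IgM cells were unmutated. KO clone 7 had 3.10 and 1.22 mutations a cell. The change G92A was in 5 of 15 switched and 1 of 23 IgM cells of KO clone 3, and in 4 of 10 and 1 of 9 of KO clone 7. WT clone 10 had 13 IgG3 and 4 IgM cells with 3.77 and 3.50 mutations a cell, and its C170T was in 4 of 13 and 3 of 4. The 3 IGHA cells all came from WT clone 9 (IGHV1-42 with IGKV1-117), beside 8 IGHG2B, 1 IGHG3 and 7 IgM cells.

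Other named clones differed in what the classes shared. WT clone 7 (IGHV1-53 with IGKV9-124) had 7 switched and 21 IgM cells with 3.57 and 3.67 mutations a cell, no unmutated cell in either class, and C93G in 2 of 7 and 9 of 21. In WT clone 3, with 7 switched and 95 IgM cells, G92A was in 4 of 7 and 30 of 95, G161C in 3 of 7 and 12 of 95 and C173T in 3 of 7 and 4 of 95. KO clone 5 shared no substitution between its 5 IgG1 and 24 IgM cells, and all 24 IgM cells were unmutated.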

How the data were processed

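Paired B-cell receptor libraries of 4 KO and 4 WT samples were analysed. Per the labels' protocols, libraries were made with droplet and mouse receptor amplification kits, and per the submitters' processing notes Cell Ranger and R 4.3.1 with the build mm10. The read and UMI counts per contig are raw whole numbers, as deposited. All other values were computed here with SciPy 1.17.1, NumPy 2.4.6, pandas 2.3.3 and matplotlib 3.10.9 in Python 3.11.15.

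Barcodes with more than 1 heavy or light contig were excluded because they may be doublets (no caller was used). Germlines were the most common framework 1 to framework 3 sequence of a V gene with at least 20 clones, which left 35 member cells without a heavy mutation count. A germline taken this way can miss an allele. RefSeq coordinates are of GRCm38.p6. Sister differences were tested by 256 sign patterns over 8 libraries, and KO against WT by 70 assignments, with Benjamini-Hochberg adjustment within families of 8, 8 and 3 tests at 0.05. The share of cells in mixed clones, their switched share, the share identical to an IgM sister and heavy CDR3 length rest on what the rule used. The report therefore prints no p for them. They stayed in the families, so the adjusted p of the other tests depends on them. Clone and germline steps were tested on simulated data. The members, lists, tests and alternatives were chosen with earlier results of these data known. The named clones are the 5 largest and the 5 with most switched cells of each pool, the largest with at least 3 switched classes and the 2 of at least 5 cells with most shared mutations. The text names some of these. Replicate numbers did not pair the samples (same-number correlations -0.13 to 0.16).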

Additional observations from a re-analysis of the deposited data

Results flagged for a closer look

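In KO replicate 1 the within-clone difference in heavy V mutation was 0.307 points, far below the other 3 KO libraries, and it enters the KO minus WT comparison of that difference too. In KO replicate 2 the difference in unmutated share was -40.1 points, far below the other KO libraries. In WT replicate 3 switched cells of mixed clones exceeded those of switched-only clones by 0.134 points, while the other 3 WT libraries were negative. Of 38 groups of 4 libraries examined, 4 had such a library, and chance gives about 1 in 20.

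Barcodes outside the paired cells also carried heavy chains of mixed clones. In KO 149 such barcodes did, 4.07% of 3658 unpaired barcodes with a heavy chain, and in WT 299 did, 10.1% of 2968. Their contigs were 37 switched and 111 IgM in KO, and 26 switched and 277 IgM in WT. No value of these barcodes enters the results above.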

How the results depend on the processing

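Of the settings tried for the 19 tests, 332 values kept their direction and side of the threshold, 18 lost the call, 5 gained it and 14 changed sign. These counts include the results that are given above without a test. Clones built on identical heavy CDR3 (126 mixed clones with 591 cells) gave a sister heavy V mutation difference of 0.175 points, an unmutated share of 4.79 points, a replacement share of -0.646 points, a KO minus WT sister mutation difference of -0.117 points and a KO minus WT switched share of 3.50 points. In the clones with a heavy CDR3 found in both classes, chosen after seeing the data, the KO minus WT switched share was 6.29 points. The share identical to an IgM sister was 2.39 points there, and neither share carries a call. Clones within each library gave 10.9 points for the KO minus WT switched share, 1.09 for the identical share, -0.25 (called) for the log2 heavy UMI difference, 0.217 for mixed minus switched-only clones and 1.24 for the hotspot share. At least 20 heavy UMIs gave 0.621 for the identical share, 0.0419 for mixed minus switched-only, -2.12 for the CDR share, and calls of 5.10 for the hotspot share and 0.32 (log2) for light UMIs. An identity of 0.90 gave 1.46 for the identical share and -0.0129 for the replacement share. At least 2 cells of each class gave a called CDR share of 2.36 points, and counting each cell equally gave -0.130 for the KO minus WT sister mutation difference. The causes were not tested.

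Pairing same-numbered libraries as a replicate block allows no p below 0.125. It therefore ended the calls between pools at unchanged values of 40.7 (IGHG1 share), -0.268 (IgM mutation) and -0.412 (switched mutation). The values of -6.58 (mixed-clone cells), 11.1 (switched share) and 1.31 (identical share) rest on what the rule used and carry no call. 0 of 4 KO libraries correlated best with their own number in WT.

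Leaving out 1 library moved the light UMI difference between 0.0695 and 0.161, called without KO replicate 1, and the KO minus WT heavy UMI difference between -0.34 and -0.19, called without KO replicate 3. The identical share ran from 1.03 to 1.58 points and carries no call. The CDR share ran from -0.170 to 1.28 and the hotspot share from -1.35 to 0.463 points.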
